A study of Mus musculus with 12 samples.

Results

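Replication-dependent histone genes of mouse embryonic stem cells were followed across 12 RNA-seq libraries, which form 6 groups with 2 libraries in each. The members were taken by name, as every row of the deposited tables whose gene symbol starts with Hist1h, Hist2h, Hist3h or Hist4h. They numbered 67 of 19996 genes in the serum and overexpression tables (6 H1, 18 H2A, 18 H2B, 12 H3 and 13 H4) and 62 of 19718 genes in the 2i table, where 7 H3 members were analysed. For 46 of the 67 the table joins several symbols in 1 cut-off string, and those rows are named here by their Ensembl ID through GENCODE M21. That annotation named 60 members, the table's own single symbol served for Hist1h2bh and Hist1h2bm, and 5 H3 rows are known by ID alone. The annotation types Hist1h2al as a processed pseudogene and gives the Hist2h2bb row as Gm42743, a lincRNA, and both were kept under the table's symbol.

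Nucleosomes wrap DNA around pairs of the core histones H2A, H2B, H3 and H4, and the linker histone H1 binds where the DNA enters and leaves. Cells make most of this protein in S phase, from small intronless genes that lie in clusters and exist in many near-identical copies. Their mRNAs normally end just after a short stem-loop that the stem-loop binding protein Slbp recognises, and carry no poly(A) tail. A part of them can instead be polyadenylated at a site further downstream. The libraries were made from polyadenylated RNA, so each value below measures the polyadenylated or otherwise retained part of a histone mRNA pool and not the whole pool.

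The series removed or raised Foxd3, a transcription factor of the forkhead family. Cells labelled Foxd3fl/fl;Cre-ER carry a floxed Foxd3 and a tamoxifen-activated Cre recombinase. They received 2 µM 4-hydroxytamoxifen for 3 days (labelled Foxd3-/-) or none (labelled Foxd3fl/fl), so the untreated controls carry both alleles too, and no group received tamoxifen without the floxed gene. One pair of these groups grew in SL, a medium with 15% fetal bovine serum and leukemia inhibitory factor, over irradiated embryonic fibroblasts. The other pair grew in 2i, a serum-free N2B27 medium with leukemia inhibitory factor, the MEK inhibitor PD0325901 at 0.4 µM and the GSK3 inhibitor CHIR99021 at 3 µM. The last comparison set tetON Foxd3 cells, with a doxycycline-inducible Foxd3, against WT cells of the LF2 line, all exposed to doxycycline at 1 µg/µl over 3 days, in serum medium and feeder-free. The labels do not say whether replicates were separate cultures, so the p-values measure only the spread between these libraries, which may be technical.

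Foxd3 measured 1.62 and 1.83 FPKM in the SL Foxd3-/- libraries against 4.53 and 4.81 in their controls, and 53.2 and 50.1 in tetON Foxd3 against 10.6 and 14.1 in WT. In 2i it measured 2.07 and 2.45 FPKM in the libraries labelled Foxd3-/- and 2.51 and 2.42 in the controls, a log2 difference of -0.09 (limma adjusted p = 0.461). For that reason the text calls the treated 2i libraries by their label. Between 11033 and 11919 genes per library reached 1 FPKM, and the read depth of a single library is unknown. The 8 pluripotency markers summed to between 2240.0 and 3769 FPKM in the 12 libraries.

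The stem-loop that defines these mRNAs was found in an annotated transcript of 41 of 60 members, against 86 of all 55450 GENCODE genes (0.155%). The forms below are shown because they set H4 members apart from the other classes and mark the point where the replication-dependent mRNA would end. They were read from GENCODE M21 transcripts (GRCm38) and are written as DNA, 5′ to 3′, with the 6 bases of each stem arm in capitals and the 4 bases of the loop in lower case.
Form of 23 members of H1, H2A, H2B and H3: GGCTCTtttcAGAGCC
Form of 7 H4 members: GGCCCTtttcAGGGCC
Form of 5 members of H1, H2B and H3: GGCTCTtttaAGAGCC
Form of Hist1h4i and Hist2h4: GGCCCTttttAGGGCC
Form of Hist1h4b and Hist1h4j: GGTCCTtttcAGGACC
Form of Hist1h4a: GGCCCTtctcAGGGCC
Form of Hist2h2ac: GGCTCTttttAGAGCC
The most frequent form was found in 10 H2A, 6 H2B, 4 H3 and 3 H1 members and in 0 H4 members, while the second was found in H4 members alone among these 41. In 20 members the annotated transcript ended within 60 bases after the stem-loop, and in 21 it ran on for 74 to 4884 bases. Another 12 had no stem-loop in the annotated transcript, and 7 had no annotated UTR in which it could lie.

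A pair of neighbouring genes on chromosome 11 is followed in detail below, and their promoters are shown because both genes lie within a few kilobases of each other. Hist3h2ba (an H2B gene, 11:58948920-58949533, plus strand, GRCm38) and Hist3h2a (an H2A gene, 11:58954685-58956830, plus strand) stand apart from the large cluster on chromosome 13, which holds 46 of the 60 members with coordinates. The promoters run from 250 bases before to 50 bases after the start in RefSeq (GRCm38.p6, plus strand), Hist3h2ba at chr11:58948661-58948960 and Hist3h2a at chr11:58954435-58954734. Capitals mark matches, on either strand, to the CCAAT box, to a TATA box written as TATAAA, and to the octamer ATTTGCAT.
Hist3h2ba promoter: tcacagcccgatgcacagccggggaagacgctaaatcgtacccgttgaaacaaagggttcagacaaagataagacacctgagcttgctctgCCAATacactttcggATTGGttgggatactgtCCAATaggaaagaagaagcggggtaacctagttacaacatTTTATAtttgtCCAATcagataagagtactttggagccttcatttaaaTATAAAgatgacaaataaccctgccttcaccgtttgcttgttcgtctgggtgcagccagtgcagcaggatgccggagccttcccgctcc
Hist3h2a promoter: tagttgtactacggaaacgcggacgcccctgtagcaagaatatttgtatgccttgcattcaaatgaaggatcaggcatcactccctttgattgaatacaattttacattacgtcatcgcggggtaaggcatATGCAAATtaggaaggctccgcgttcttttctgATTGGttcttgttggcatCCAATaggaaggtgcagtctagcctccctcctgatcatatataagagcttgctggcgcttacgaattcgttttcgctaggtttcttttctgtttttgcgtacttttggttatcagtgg
Over both strands, CCAAT was found in the promoters of 47 of 56 matched members (83.9%, against 37.9% of 27025 RefSeq promoters of the same 300 bases) and TATAAA in 31 (55.4% against 14.2%). The octamer was found in 12 (21.4% against 1.75%), of which 6 were H2A and 6 were H2B genes. The Hist3h2ba window held several CCAAT matches and TATAAA but no octamer, and the Hist3h2a window held CCAAT matches and the octamer.

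In 2i, where the same labels were compared without serum and without feeders named in the protocol, histone transcripts of all 5 classes stood lower in the libraries labelled Foxd3-/-. Their summed level over 62 members was 82.5 and 85.5 FPKM there against 198 and 249 FPKM in the controls, 2.66-fold lower. Of 62 members, 44 passed the filter of a mean of 1 FPKM in a group, and 44 of these were lower and 0 higher at a limma adjusted p under 0.05. Over all 11637 genes tested, 19.7% were called lower and 47.9% higher. The median log2 difference of the 44 was -0.93 against 0.19 over all genes. A member could pass the filter through the control libraries alone, so the whole set was also fitted without it: 48 of 62 were then lower and 0 higher (14.5% and 35.9% of 16608 genes), with a median over the 62 of -0.79. After median-of-ratios scaling, which moved the median of all genes to -0.02, 47 of 47 members tested were lower and 0 higher (33.8% and 30.3% of genes), at a median of -1.08. Fewer cells making histone mRNA and less of it per cell cannot be told apart in bulk RNA. Nor can either be told apart here from a smaller polyadenylated or otherwise retained part of the pool, which was not tested.

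**Figure D1:**
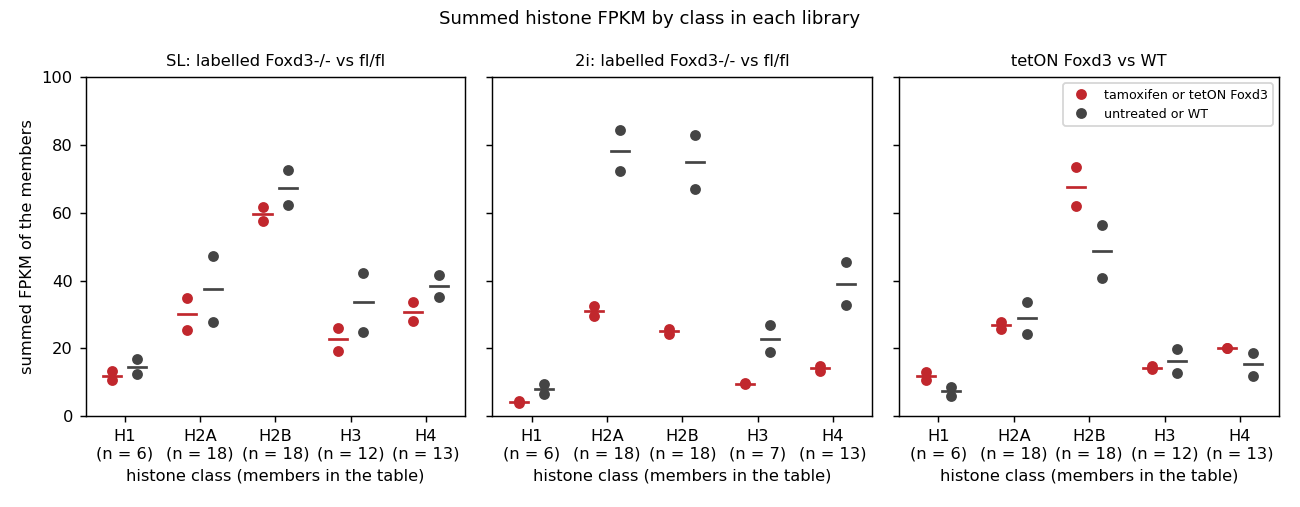
Summed FPKM of the members of each histone class in each library (points, with a line at the mean of 2), for the 3 comparisons. In 2i every class sum is lower in both libraries labelled Foxd3-/- than in both controls, while in SL and in overexpression the groups lie closer together or overlap.

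Among the core histones in 2i, H2A summed to 29.5 and 32.6 FPKM against 72.3 and 84.4, and H2B to 25.6 and 24.4 against 67.1 and 83.0. H4 summed to 13.5 and 14.8 FPKM against 32.7 and 45.5, and the 7 H3 members to 9.46 and 9.86 against 18.8 and 26.8. The linker histones H1 summed to 4.45 and 3.88 FPKM against 6.65 and 9.47. The groups did not overlap in any of the 5 classes, with H2B 3.00-fold lower, H4 2.76-fold, H2A 2.53-fold, H3 2.36-fold and H1 1.93-fold. All members tested were called lower in each class, namely 15 H2A, 13 H2B, 5 H3, 9 H4 and 2 H1 genes. Over all genes tested, 19.7% were called lower and 47.9% higher. The 2i table held 18 H2A, 18 H2B, 7 H3, 13 H4 and 6 H1 members, and the others were below the filter. A member could pass the filter through the controls alone, which favours lower calls among those tested. With no filter, 16 of 18 H2A, 13 of 18 H2B, 7 of 7 H3, 9 of 13 H4 and 3 of 6 H1 members were lower. Over all genes with no filter, 14.5% were lower and 35.9% higher.

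The widest difference among the members tested in 2i was that of an H2B gene. Hist3h2ba fell from 9.44 and 13.03 FPKM in the 2i controls to 0.703 and 0.703 FPKM in the libraries labelled Foxd3-/- (log2 difference -2.83, SE 0.14, limma adjusted p = 3.33e-06), a 15.98-fold lower mean. Hist1h2bj fell from 10.4 and 10.3 FPKM to 3.54 and 3.37 (log2 difference -1.35). Hist1h2bk, the H2B gene of highest level in 2i, fell from 16.8 and 15.1 FPKM to 5.36 and 6.70 (log2 difference -1.27). Every library labelled Foxd3-/- was below every control for these 3 genes. Hist1h2bl measured 1.69 and 1.16 FPKM against 4.05 and 5.51 (log2 difference -1.25), Hist1h2bg 1.80 and 1.19 against 3.76 and 5.39 (-1.16), and Hist1h2bp 2.06 and 1.78 against 3.99 and 7.35 (-1.14). Hist1h2bc, whose annotated transcript holds no stem-loop, measured 2.95 and 2.79 FPKM against 4.63 and 5.73 (log2 difference -0.67, limma adjusted p = 0.000988), a smaller fall that also passed.

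H2A genes fell within a narrower range. Hist1h2ap measured 3.66 and 4.01 FPKM against 10.5 and 14.1 in the controls (log2 difference -1.44), and Hist1h2ao 2.29 and 2.38 against 5.42 and 7.85 (-1.18). Hist3h2a, next to Hist3h2ba, measured 1.16 and 0.999 FPKM against 3.07 and 4.31 (log2 difference -1.16, limma adjusted p = 0.000148). For each the groups were apart. Hist1h2ag followed at 2.54 and 2.74 FPKM against 5.06 and 9.07 (log2 difference -1.10) and Hist1h2ae at 2.41 and 2.95 against 6.07 and 7.52 (-1.08).

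Of the H4 genes, Hist1h4b measured 1.42 and 2.01 FPKM against 6.24 and 7.98 (log2 difference -1.58) and Hist1h4d 4.29 and 2.96 against 7.62 and 12.5 (-1.24). Hist1h4n measured 1.93 and 2.68 FPKM against 5.49 and 6.12 (-1.05), and Hist1h4i 0.849 and 1.41 against 1.80 and 2.85 (-0.64). Hist1h3c was the H3 gene of highest level, at 5.16 and 5.62 FPKM against 9.79 and 14.5 (log2 difference -1.02), above Hist1h3b at 1.57 and 1.68 against 3.17 and 4.31 (-0.84). Hist1h3a measured 1.18 and 1.29 FPKM against 2.38 and 3.37 (-0.78), and Hist1h3e 0.914 and 0.808 against 1.72 and 2.05 (-0.63). These 8 core histone genes were lower in both libraries labelled Foxd3-/- and passed the test, although Hist1h4i lost its call with no filter on low values (limma adjusted p = 0.0563).

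Among the linker histones, Hist1h1c measured 1.39 and 1.05 FPKM in the libraries labelled Foxd3-/- and 2.36 and 3.09 in the controls (log2 difference -0.74). Hist1h1a measured 1.5 and 1.32 FPKM against 2.20 and 3.18 (-0.60). Both passed the test and their groups were apart. Hist1h1b, at 0.443 and 0.453 FPKM against 0.486 and 0.743, and Hist1h1e, at 0.448 and 0.561 against 0.551 and 1.06, were below the filter. The annotated span of Hist1h1e overlaps that of Hist1h2be on the same strand, so reads there can count toward either.

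The remaining called members were Hist1h2ab, Hist1h2ac, Hist1h2ad, Hist1h2af, Hist1h2ah, Hist1h2ai, Hist1h2ak, Hist1h2an, Hist2h2aa1, Hist2h2aa2, Hist1h2bb, Hist1h2bf, Hist1h2bm, Hist1h2bn, Hist1h2bq, Hist1h2br, Hist2h3b, Hist1h4a, Hist1h4f, Hist1h4h, Hist1h4k and Hist1h4m. Outside the 12 largest falls, the differences of called members ran from -1.08 to -0.52, with limma adjusted p of at most 0.0159. Of all 62 members, 55 had both libraries labelled Foxd3-/- below both controls and 2 had them above, against 23.6% and 52.2% of genes. The groups overlapped for Hist1h1e, Hist2h2ab, Hist2h2ac, Hist1h2bh and Hist2h4, whose group means were under 1 FPKM. The reverse order was seen in Hist2h2be, at 0.546 and 0.358 FPKM against 0.322 and 0.269, and in Hist4h4, at 0.764 and 0.857 against 0.676 and 0.763. These 7 were named after their values were seen.

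**Figure D2:**
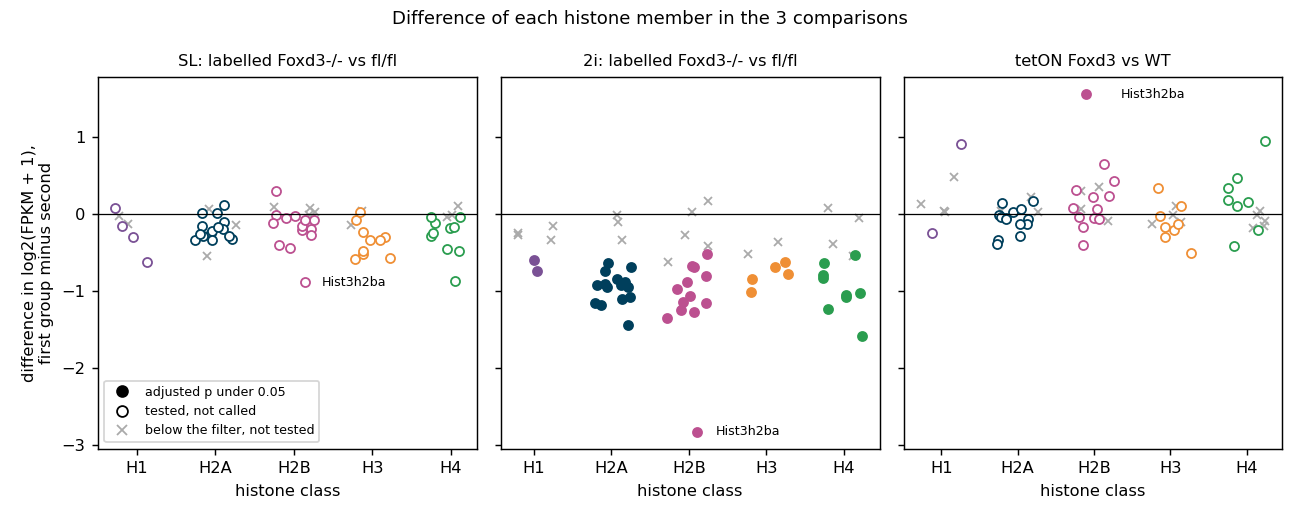
Difference in log2(FPKM + 1) of each member, by class, in the 3 comparisons (filled points passed an adjusted p of 0.05, open points were tested and not called, crosses were below the filter). In 2i the 44 filled points all lie under 0, in SL none is filled, and in overexpression Hist3h2ba alone is filled, at 1.56.

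The authors' mean reads were then set beside FPKM in 2i. In the authors' deposited table the group mean reads of the members summed to 625 in the libraries labelled Foxd3-/- and to 1750 in the controls, 0.00257% and 0.00647% of all mean reads. A ratio of mean reads could be formed for 51 members that also had an FPKM ratio, and 50 of these had the same sign. Of 27 members with at least 20 mean reads in a group, 25 had a ratio below 1 and their median log2 ratio was -1.68, where 48.5% of 12957 genes with as many reads had a ratio below 1. The authors' deposited p-values, adjusted here over all genes, called 23 of 62 members lower and 0 higher (20.2% and 20.6% of genes). Hist3h2ba had 9.45 mean reads against 180.6 in the authors' deposited table, and Hist1h2bk had 59.1 against 168.

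**Figure D3:**
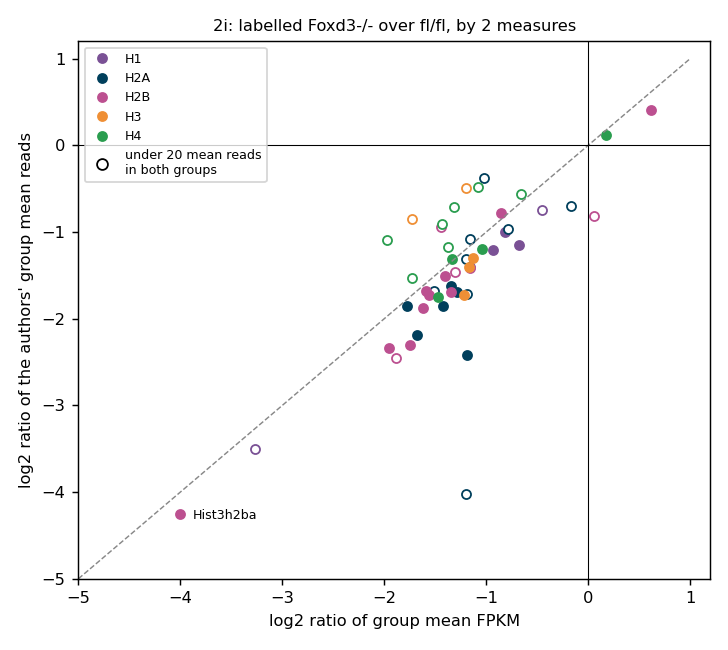
For each member with both values above 0 in 2i, the log2 ratio of the group means of FPKM (horizontal) against the log2 ratio of the authors' group mean reads (vertical), open where both groups had under 20 mean reads. Most points lie under 0 on both axes, and Hist3h2ba lies lowest among the filled points.

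Copies that share sequence limit how far a single member can be read. In the annotated transcripts the median member had 56.0% of its 50-base words in common with another annotated gene. Words were compared with all annotated genes, on either strand, and not with members alone. By class the medians were 73.2% in H2A, 63.5% in H3, 46.9% in H2B, 39.5% in H4 and 1.13% in H1. Every word was shared in Hist2h2aa1, Hist2h2aa2, Hist2h3b and Hist2h3c1, which had 0 mean reads in all 6 groups of the authors' deposited tables yet had FPKM values, such as 1.97 and 2.34 for Hist2h2aa1 in the SL Foxd3-/- libraries. The 15 members with at least 85% of their words shared had a median of 5.81 mean reads summed over the 6 groups at a median level of 2.07 FPKM. The other 45 had 142 mean reads at 1.75 FPKM. Hist1h4b (75.9% shared) had 0 mean reads against 4.52 in 2i and Hist1h2ao (93.5% shared) had 0 in both groups, although both had FPKM values in every 2i library. Hist3h2ba shared 22.1% of its words, Hist3h2a 31.5%, Hist1h4i 28.9%, Hist1h2bc 30.6% and Hist1h1c 8.54%.

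In SL, where the deletion was compared in serum, 0 of 53 members tested passed in either direction. Over all 12024 genes, 0% were called lower and 0.00832% higher. The summed level was 141 and 170 FPKM in the Foxd3-/- libraries and 162 and 221 FPKM in the controls, so the groups overlapped. The median log2 difference of the 53 members was -0.22 against -0.01 over all genes, and 55 of 67 members had a lower mean in the Foxd3-/- libraries. In both SL groups most members were higher in replicate 2, 45 of 67 in Foxd3-/- and 58 of 67 in the controls, and the 2 control libraries differed by more than the group means did.

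By class in SL, H2B summed to 57.7 and 61.7 FPKM against 62.2 and 72.7 and H4 to 28.1 and 33.6 against 35.0 and 41.7, without overlap. H2A summed to 25.4 and 34.95 FPKM against 27.9 and 47.3, the 12 H3 members to 19.2 and 26.1 against 24.98 and 42.2, and H1 to 10.6 and 13.3 against 12.5 and 16.8, all overlapping. An unadjusted p under 0.05 was reached by 3 members in the lower direction and 0 in the higher, where 3.05% and 6.07% of all genes reached it. Hist3h2ba measured 2.71 and 3.39 FPKM against 6.29 and 6.64 (log2 difference -0.89, SE 0.15, limma adjusted p = 0.177). Hist1h4f measured 1.16 and 0.799 FPKM against 2.63 and 2.57 (log2 difference -0.87, limma adjusted p = 0.195). Hist1h3c measured 3.22 and 3.82 FPKM against 5.31 and 6.19 (log2 difference -0.58, limma adjusted p = 0.306). The groups of these 3 genes were apart, but none passed over all genes. Without Foxd3-/- replicate 2, limma called 3 of 54 members lower: Hist3h2ba, Hist1h1b and the H3 row ENSMUSG00000062417. In that fit 0.698% of 12039 genes were called lower, and the remaining Foxd3-/- library is assumed to vary as the controls do.

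The most abundant members in SL did not pass the test. Hist1h2bk measured 12.4 and 14.1 FPKM in Foxd3-/- and 13.5 and 14.6 in the controls, a log2 difference of -0.08 (95% interval -0.39 to 0.24). Hist1h2bc measured 14.7 and 13.99 FPKM against 12.3 and 10.6, a difference of 0.30 (95% interval -0.02 to 0.62). Hist1h2bj stood at 6.43 and 8.79 FPKM against 9.28 and 12.2, and Hist1h4d at 4.73 and 5.93 against 5.49 and 6.20. Hist1h1a, the linker histone of highest level in SL, measured 3.31 and 4.83 FPKM against 4.58 and 5.84 (log2 difference -0.30, 95% interval -0.79 to 0.18). Hist1h1c measured 4.76 and 4.23 FPKM against 4.03 and 4.39. None of these passed, and the intervals do not show that the groups were alike.

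The overexpression comparison set tetON Foxd3 cells against WT cells, and among the histones 1 gene was called higher in tetON Foxd3. No tetON Foxd3 group without doxycycline was sequenced. Added Foxd3 and other differences between these cells therefore cannot be told apart. Of 45 members tested, Hist3h2ba was higher and 0 were lower, against 0.994% higher and 1.65% lower of 11972 genes. Hist3h2ba rose from 2.11 and 3.43 FPKM in WT to 10.9 and 9.06 FPKM in tetON Foxd3 (log2 difference 1.56, SE 0.22, limma adjusted p = 0.0399), a 3.59-fold higher mean. Its mean reads in the authors' deposited table were 299 against 85.1, and the authors' p-value, adjusted here, also called it (0.00258) and no other member (1.96% of genes higher and 2.59% lower). The limma call was lost without tetON Foxd3 replicate 1 (adjusted p = 0.0751), without WT replicate 1 (0.0928) and with no filter on low values (0.0971), where 0% of 17032 genes were called in either direction. The difference stayed between 1.30 and 1.81 when any 1 library was left out.

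An unadjusted p under 0.05 was reached by 5 members in the higher direction (10.4% of genes) and 3 in the lower (10.4%). Apart from Hist3h2ba, the higher ones were Hist1h4i, Hist1h1c, Hist1h2bc and Hist1h4j. Hist1h4i measured 7.01 and 9.49 FPKM in tetON Foxd3 and 2.55 and 5.39 in WT (log2 difference 0.94, limma adjusted p = 0.175). Hist1h1c measured 7.07 and 10.6 FPKM against 2.81 and 5.94 (0.91, limma adjusted p = 0.208). Hist1h2bc, the member of highest level in both groups, measured 29.6 and 26.6 FPKM against 14.2 and 21.5 (0.65, limma adjusted p = 0.153). The groups were apart for these 3 genes, with WT replicate 2 always the nearer library, and none passed over all genes. The lower ones were Hist1h3a, at 0.787 and 0.605 FPKM against 1.33 and 1.5, Hist1h4d, at 0.661 and 0.674 against 1.33 and 1.11, and Hist2h2aa2, at 1.12 and 1.2 against 1.73 and 1.92.

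By class in overexpression, H2B summed to 73.5 and 61.9 FPKM in tetON Foxd3 against 40.9 and 56.3 in WT, H1 to 10.6 and 13.2 against 5.93 and 8.69, and H4 to 20.1 and 20.05 against 11.8 and 18.8, with the groups apart. The H1 difference rested on Hist1h1c, since the log2 ratio of the class sums was 0.70 with it and 0.07 without it. The H4 ratio likewise went from 0.39 to 0.06 without Hist1h4i, and to 0.09 without WT replicate 1. Over all 67 members the sums were 146 and 136 FPKM against 95.7 and 138, overlapping. In WT 55 of the 67 members were higher in replicate 2. H2A summed to 27.8 and 25.9 FPKM against 24.1 and 33.8 and H3 to 13.99 and 14.7 against 12.9 and 19.9, overlapping. Over the 45 members the median log2 difference was -0.03, beside 0.03 over all genes.

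On log2(FPKM + 1), Hist3h2ba had the largest absolute difference of the members tested in each of the 3 comparisons. As a log2 ratio of mean FPKM the order was another, with Hist2h2ac (below the filter) at -1.56, Hist1h4f at -1.41 and Hist3h2ba at -1.08 in SL. In overexpression Hist1h1t, below the filter at means of 0.454 against 0.0210 FPKM and at 0.56 mean reads in WT in the authors' deposited table, had a wider ratio than Hist3h2ba (1.85). Hist3h2a measured 1.19 and 0.867 FPKM in SL Foxd3-/- against 0.709 and 1.04 in the controls (log2 difference 0.12, 95% interval -0.34 to 0.57). In overexpression it measured 3.75 and 3.5 FPKM against 3.29 and 3.59 (0.06, 95% interval -0.31 to 0.43). In overexpression a change of the size of that of Hist3h2ba lies outside this interval. At the low SL values of Hist3h2a, log2(FPKM + 1) understates changes. Its SL interval was therefore not set against the difference of Hist3h2ba. Rnf187, a ubiquitin ligase gene named because it lies beside the pair, measured 61.3 and 67.7 FPKM in the 2i libraries labelled Foxd3-/- and 62.5 and 65.1 in the controls. Trim17, whose annotated span overlaps Hist3h2a, measured at most 0.136 FPKM in any library. Trim11, another neighbour, measured 17.2 and 18.2 FPKM in the 2i libraries labelled Foxd3-/- against 13.2 and 12.1, higher (log2 difference 0.45, limma adjusted p = 0.00118). The fall in 2i was measured at both histone genes and not at Rnf187 or Trim11.

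**Figure D4:**
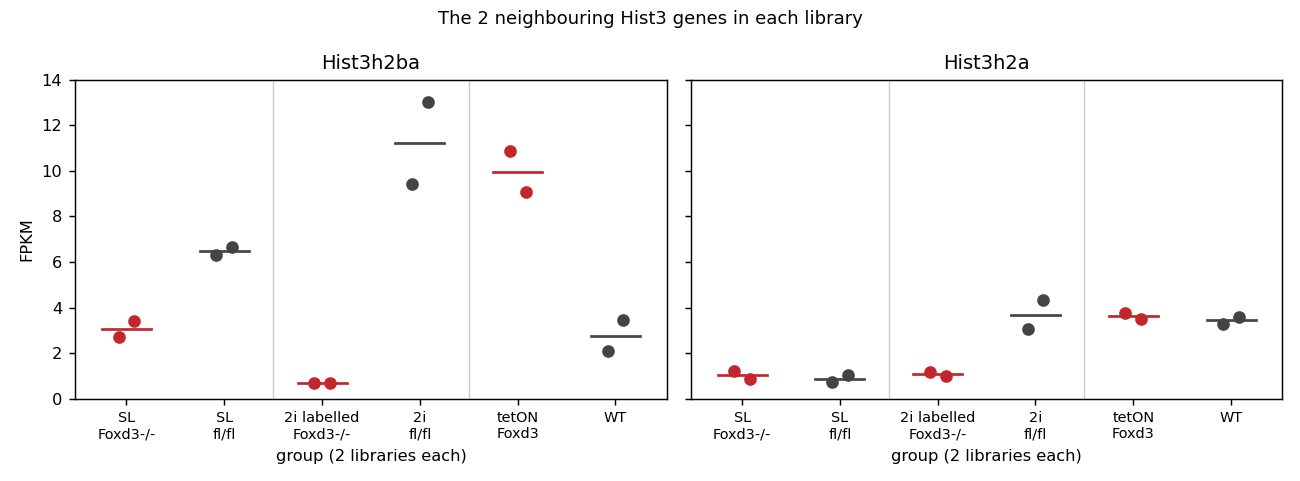
FPKM of Hist3h2ba and of its neighbour Hist3h2a in each library (points, with a line at the mean of 2), in the 6 groups. Hist3h2ba lies at 0.703 FPKM in both 2i libraries labelled Foxd3-/- and at 9.06 and 10.9 FPKM in tetON Foxd3, while the groups of Hist3h2a are apart in 2i and overlap in SL and in overexpression.

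The difference between the groups labelled Foxd3-/- and Foxd3fl/fl itself differed between media for part of the members. Testing the 2i difference minus the SL difference, 15 of 50 members were more negative in 2i and 0 more positive at a limma adjusted p under 0.05, against 5.55% and 18.4% of 12497 genes. The count rests on single libraries: it changed when 1 library was left out. The share of all genes called changed too, not always in the same direction. The median of the 50 was -0.64 beside 0.17 over all genes. With no filter on low values 9 of 62 were more negative and 0 more positive, against 3.5% and 10.1% of genes. The 15 were 7 H2A, 5 H2B, 2 H4 genes and 1 H1 gene, and 0 of the 5 H3 members tested passed. The largest was again Hist3h2ba, at -1.94 (SE 0.22, limma adjusted p = 0.00287), followed by Hist1h4b at -1.30. For Hist1h3c the difference between media was -0.44 (95% interval -1.0 to 0.12). Medium and feeders differ together between these groups, and the tables were normalised separately, so levels were not compared across them.

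Members were also grouped by where their annotated transcript ends. In 2i, members whose transcript ends within 60 bases of the stem-loop had a median difference of -0.95 over all 20, with both groups apart in the lower direction for 19. The 21 members with a longer transcript had a median of -0.54, with 18 lower, and the 12 without a stem-loop -0.61, with 10 lower. Over all genes above 0 in 2i, 23.6% were apart in the lower direction and 52.2% in the higher. Over the members that passed the filter the medians were -0.98 (19 short), -1.02 (11 longer) and -0.69 (7 without a stem-loop), so the short and the longer members did not keep their order, and differences of low members are small on this scale. In overexpression the 20 short members had a median of -0.10, with 0 apart in the higher and 7 in the lower direction. The 21 longer members had a median of 0.13, with 8 apart in the higher direction and 3 in the lower. Over all genes above 0 in overexpression, 26.8% were apart in the higher and 22.7% in the lower direction. Of the 5 members with an unadjusted p under 0.05 in the higher direction, Hist3h2ba, Hist1h4i, Hist1h1c and Hist1h4j belong to the longer group, with 169, 330, 840 and 385 annotated bases after the stem-loop. The difference between these groups of members was not tested.

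**Figure D5:**
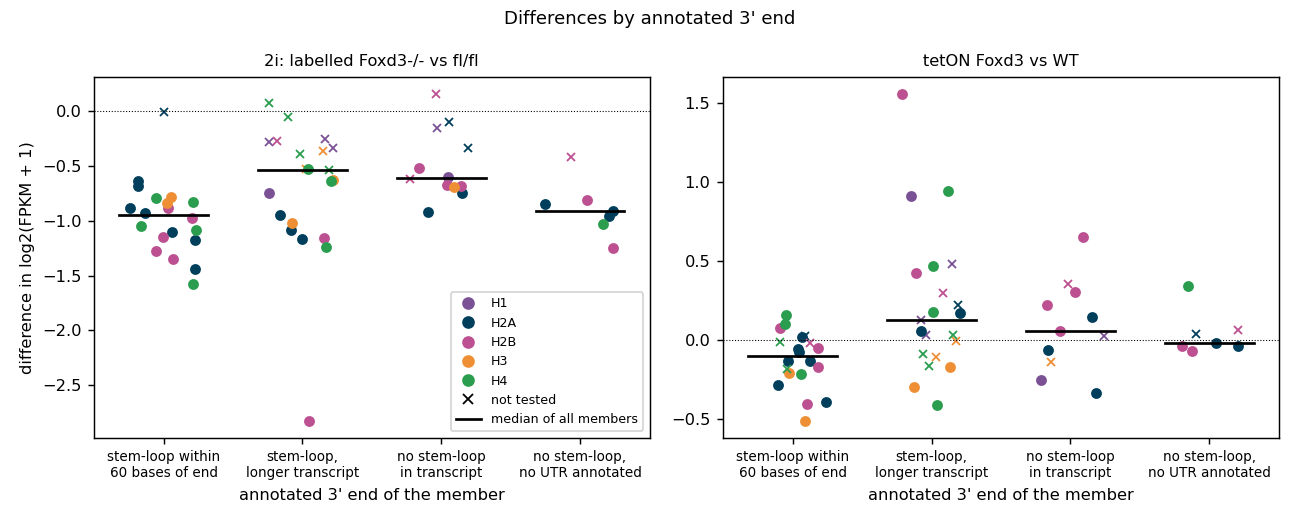
Difference in log2(FPKM + 1) of each member, by where its annotated transcript ends, in 2i and in overexpression (points coloured by class, crosses below the filter, line at the median of all members of a group). In 2i the medians lie between -0.95 and -0.54, and in overexpression they lie at -0.10 for the short and 0.13 for the longer transcripts.

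Genes that make, process and carry histones were read from lists. Of 31 genes for histone mRNA transcription and 3′ end processing, 12 were higher and 7 lower in 2i, with a median of -0.01, beside 47.9% and 19.7% of all genes. After median-of-ratios scaling the balance turned, to 8 higher and 18 lower at a median of -0.23 (30.3% and 33.8% of genes), and 0 passed in SL or in overexpression. The stem-loop binding protein gene Slbp measured 54.6 and 57.7 FPKM in the 2i libraries labelled Foxd3-/- against 67.3 and 69.0 (log2 difference -0.27, limma adjusted p = 0.00232), and Npat, the coactivator of histone gene transcription, 12.8 and 12.98 against 13.7 and 12.8. Both were chosen after their values were seen. The 3 lowest adjusted p of the list belonged to Zcchc6, a uridylyltransferase that acts on histone mRNA (log2 difference 0.84), the cleavage factor gene Cstf3 (0.89) and Pcf11, a factor of 3′ end cleavage (1.28), all higher in 2i.

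Genes listed as replication-independent histones, most of which are expressed outside S phase too and give polyadenylated mRNA, were called in both directions in 2i. Of 11 tested in 2i, 2 were higher and 6 lower, with a median of -0.19, and after scaling the counts were again 2 and 6 at a median of -0.41. H2afy, for macroH2A, measured 169 and 183 FPKM against 117 and 110 and rose (log2 difference 0.63), while H2afv (-0.39) and H2afj (-0.81) fell. Of 23 histone chaperone genes 10 were higher and 6 lower in 2i, with Atrx (0.90) and Hira (0.59) among the higher and Mcm2 (-0.39) among the lower. After scaling 3 chaperone genes were higher and 12 lower, at a median of -0.22. For both lists the shares over all genes in 2i were 47.9% higher and 19.7% lower, and after scaling 30.3% and 33.8%. In SL and in overexpression 0 members of both lists passed.

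Cell cycle genes were called in both directions in 2i. Of 35 DNA replication genes tested in 2i, 13 were higher and 11 lower, with a median of 0.02, led by Pola2 (0.80), Mcm6 (-0.42) and Orc6 (0.53). Of 20 genes of G2 and mitosis, 7 were higher and 4 lower, with a median of 0.04, led by Top2a (-0.56), Cenpe (0.67) and Ube2c (-0.40). After median-of-ratios scaling the same lists had 5 higher and 18 lower, and 4 higher and 11 lower, at medians of -0.20 and -0.18. Over all genes in 2i, 47.9% were called higher and 19.7% lower before scaling, and 30.3% and 33.8% after it. In SL and in overexpression 0 members of either list passed, with medians between -0.09 and 0.00.

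Marker levels of other cells are given beside these results, and their part in them was not tested. Fibroblast markers (21 genes) summed to 1101 and 977 FPKM in SL Foxd3-/- against 745 and 764 in the controls, and 18 of 18 tested were above 0 in difference with 0 called. In 2i they summed to 661 and 665 FPKM against 684 and 682, with 5 called higher and 2 lower and Lum at 0, and in overexpression to 447 and 473 against 332 and 313, with 1 called higher and Col3a1 and Lum at 0. The 2 called lower in 2i were Thy1 (-1.61) and Vim (-0.94), and Thbs1 (1.17) was among the higher. Y-linked genes, which mark male cells, summed to 1.70 and 1.53 FPKM in SL Foxd3-/- against 0.95 and 0.97 and to under 0.1 FPKM in each 2i library, and were at 0 in overexpression. Of the pluripotency genes, Nanog (0.95), Zfp42 (1.14) and Sox2 (0.76) were among 4 of 8 called higher in 2i, and 2 of 8 were lower in overexpression. After median-of-ratios scaling 3 of the 8 were higher and 1 lower in 2i (30.3% and 33.8% of genes). Over all genes before scaling, 47.9% were called higher and 19.7% lower in 2i. The shares in overexpression were 0.994% higher and 1.65% lower.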

How the data were processed

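Polyadenylated RNA was sequenced in 12 libraries, per the labels. The authors deposited 1 table for each comparison, and per the file headers the value of a library is its FPKM, reads per transcript length and library size. Other columns hold, per the file headers, the mean read signal of a group, a p-value before adjustment and a signed fold score. How the authors scaled the mean read signal is not stated, and it has no spread. TopHat2, Cufflinks, DESeq2, SAMtools and FastQC are named, without versions, in the submitters' processing notes, which give GRCm38 and mm10 as builds.

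For each comparison its own 4 libraries were modelled with limma 3.58.1 (R 4.3.3) on log2(FPKM + 1), over genes whose mean reached 1 FPKM in 1 of the groups. Benjamini-Hochberg adjustment ran over all genes tested, with a threshold of 0.05. Changes of low genes are understated on this scale. The difference between media was an interaction over the 8 libraries of the SL and 2i tables. Exact permutation was left out because 4 libraries allow no 2-sided p below 0.333. Class sums have no test. The fit was run on simulated data, with changes placed only in genes above a level cut and noise drawn independently for each library. That run therefore does not cover low members or libraries that deviate together. Failed estimates (0 FPKM despite over 200 mean reads) numbered 0 among members.

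Members, gene lists and tests were chosen with earlier results of these data known. Named with every library were up to 4 members of each class by mean FPKM over the 12 libraries and the called members (12 in full in 2i), and up to 3 genes of each list by adjusted p. The lists were histone mRNA transcription and 3′ end processing, replication-independent histone genes, histone chaperones, DNA replication, G2 and mitosis, markers of pluripotent, fibroblast and male cells, and other transcripts without a long poly(A) tail, which 0 rows matched. Coordinates come from GENCODE M21, where 19513 IDs of a table were found. The alternatives were another pseudocount (0.1), no filter and a filter at 5 FPKM, median-of-ratios scaling, a replicate block, all 12 libraries in 1 fit, the authors' p-values, mean reads, and leaving out each library. Shared sequence was measured in 50-base words of the annotated transcripts.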

Additional observations from a re-analysis of the deposited data

Results flagged for a closer look

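The Foxd3-/- against Foxd3fl/fl difference, by label, was not the same in 2i and SL, by limma's interaction test over all genes, for 15 members, each with a more negative difference in 2i. On the log2 scale, the 2i difference minus the SL difference was -1.94 for Hist3h2ba, -1.30 for Hist1h4b, -1.28 for Hist3h2a, -1.23 for Hist1h2bl and -1.19 for Hist1h2bk. It was -1.19 for Hist1h2ap, -1.12 for Hist1h4d, -1.09 for Hist1h2ae, -1.01 for Hist1h2ao and -1.01 for Hist1h2ac. The other 5 were Hist1h2ag at -0.99, Hist1h2bc at -0.97, Hist1h2bj at -0.91, Hist1h1c at -0.82 and Hist2h2aa1 at -0.64. The limma adjusted p of these members ran from 0.00287 to 0.0497. Hist2h2aa1 had 0 mean reads in every group of the authors' deposited tables, and Hist1h2ao had 0 in both 2i groups. The number of such members changed when 1 library was left out, and so did the share of all genes called.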

How the results depend on the processing

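Of the class sums, the log2 ratio in 2i was -1.56 for H2A and -1.81 for H2B after median-of-ratios scaling, and -1.75 for H2A and -1.09 for H4 by the authors' mean reads, all in the same direction as on FPKM (-1.34, -1.59 and -1.47). The H1 ratio in overexpression was 0.0703 without Hist1h1c. The 44 members called lower in 2i were also called with a pseudocount of 0.1, after scaling, with the replicate block and without failed estimates. With no filter 40 of them were called, without Hist1h4i (limma adjusted p = 0.0563), Hist1h2bb (0.0853), Hist1h2bn (0.0595) and Hist1h4a (0.0528), and with all 12 libraries in 1 fit 41, without Hist1h2af (0.0565), Hist1h3e (0.114) and Hist1h4i (0.0745). There were 17 with a filter at 5 FPKM, where 17 were tested, and 23 by the authors' p-values. Over all genes in 2i, 21.1% were lower and 46.5% higher with the filter at 5 FPKM, and 20.2% and 20.6% by the authors' p-values. With the replicate block the shares were 18.9% and 46.1%. With all 12 libraries in 1 fit, 43 of 53 members tested were lower, beside 11% of genes lower and 32.7% higher. Fits without 1 library leave 1 library in a group, so their counts are less certain. Leaving out 1 library gave 43 to 46 lower members in 2i, 0 to 3 in SL and 0 to 1 higher in overexpression. Same-numbered libraries deviated together in SL (r = 0.61 over genes) and overexpression (0.60) but not in 2i (-0.05), and with 2 pairs this does not show that the numbers pair cultures. With the replicate block, 13 members were lower and 1 higher in SL (6.87% and 9.74% of genes), 4 were higher in overexpression (10.3%), and 35 were lower and 1 higher in the difference between media (11.3% and 31.4%). In overexpression 4 members were higher with all 12 libraries in 1 fit (Hist3h2ba, Hist1h2bc, Hist1h1c and Hist1h4i, where 6.29% of genes were higher) and 0 with no filter. The difference between media had 9 lower members with no filter, and leaving out 1 library gave 4 to 30 lower and 0 to 1 higher: 4 without the library labelled Foxd3-/- replicate 2 in 2i, 8 without its replicate 1, 7 without 2i control replicate 2, 9 without SL Foxd3-/- replicate 2 and 30 without SL control replicate 2. The cause was not tested. By the authors' deposited values, 53 of 62 members had under 20 mean reads in the 2i libraries labelled Foxd3-/-, so single low members are imprecise.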
